A study of Mus musculus with 6 samples.

Results

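The 10 genes described here encode enzymes that recycle or break down purines: guanine deaminase (Gda), xanthine dehydrogenase (Xdh), adenosine deaminase (Ada), the phosphoribosyltransferases Hprt and Aprt, the AMP deaminases Ampd2 and Ampd3, the IMP dehydrogenases Impdh1 and Impdh2, and ecto-5'-nucleotidase (Nt5e). They were picked by symbol from the 23224 genes of the deposited table, and the choice was made with their SOX17KO against Control values known, so those values are a description and carry no test here. All 10 had a row, and 9 passed the filter on low counts; Nt5e did not. RNA was sequenced from organoids derived from tumours grown in mice, labelled as AKP organoids in a study of colon cancer, in 3 SOX17KO libraries and 3 Control libraries. All 6 carry the AKP background, a name that the labels do not spell out. The SOX17KO genotype was made by CRISPR-Cas9 deletion of Sox17, an endoderm transcription factor gene. The labels name no agent, treatment or time. They do not say what the Control organoids received, whether SOX17KO is 1 clone, or whether the replicates are independent cultures, so the spread between libraries may be technical.

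Purine nucleotides are built from simple precursors by de novo synthesis, or recovered from free bases and nucleosides by salvage. Hprt and Aprt attach bases to phosphoribosyl pyrophosphate, while Gda removes guanine from that route by turning it into xanthine, which Xdh oxidises to uric acid. AMP deaminases and IMP dehydrogenases sit at the node around IMP, and set how purines are split between adenine and guanine nucleotides. In the gut epithelium these enzymes act both on purines of dividing cells and on those taken in from the lumen.

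Values per library stand in replicate order, 1 to 3, throughout. Total expected counts ran between 18290912 and 27503254 per library. Sox17 RNA was at 33.8, 41.9 and 45.1 CPM (counts per 1000000 counts of the library, its total corrected by TMM) in the SOX17KO libraries, against 34.4, 34.5 and 34.2 CPM in the Control libraries. It was not lower in SOX17KO (log2 fold change 0.23 ± 0.12, edgeR adjusted p = 0.345, and 0.34, adjusted p = 0.0113, without SOX17KO replicate 1), so it does not check the label of the libraries called SOX17KO. SOX17KO replicate 1 stood apart, correlating at 0.960 and 0.963 with SOX17KO replicates 2 and 3 in log2 CPM, while those correlated at 0.986. All 9 epithelial markers were detected. They summed to between 10026 and 14233 CPM in SOX17KO and between 13521 and 14314 CPM in Control, with SOX17KO replicate 1 the lowest. Most of each sum was Krt8, Krt18 and Krt19, and the markers did not move together. In SOX17KO replicate 1 Krt19 was at 3467 CPM against a Control mean of 5992, but Epcam was at 678 against 533. By edgeR at an adjusted p below 0.05, Epcam and Cldn7 were called higher in SOX17KO and Cldn4 lower, and the others were not called. The 9 stromal markers summed to 0.763, 0.571 and 0.277 CPM in the SOX17KO libraries, against 0.0724, 0.144 and 0.114 CPM in the Control libraries, so SOX17KO was higher at levels near 0, and Col3a1, Dcn, Lum and Thy1 had no counts. Among the immune markers Cd3e and Tyrobp had no counts, and the list of 9 summed to between 5.41 and 14.02 CPM in SOX17KO and between 9.24 and 11.4 CPM in Control, most of it Cd68. The 7 endothelial markers summed to between 3.78 and 4.10 CPM in SOX17KO and between 3.01 and 4.07 CPM in Control, with no counts for Emcn. In bulk RNA, fewer cells of a type and less RNA per cell cannot be told apart.

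Gda was the gene of the set that differed most between the groups, and Ampd3 came second by fold. The upstream sequences of these 2 genes are therefore shown, from RefSeq on GRCm38.p6 (the table was made on mm9, whose coordinates differ). Each run is the 250 bases before the annotated start, read 5' to 3' on the gene's strand. Capitals mark a CCAAT box on either strand, the 1 searched motif that these windows hold. The Gda window is chr19:21472662-21472911 on the minus strand, and the Ampd3 window, before the most upstream of its 3 annotated starts, is chr7:110768372-110768621 on the plus strand.
Gda: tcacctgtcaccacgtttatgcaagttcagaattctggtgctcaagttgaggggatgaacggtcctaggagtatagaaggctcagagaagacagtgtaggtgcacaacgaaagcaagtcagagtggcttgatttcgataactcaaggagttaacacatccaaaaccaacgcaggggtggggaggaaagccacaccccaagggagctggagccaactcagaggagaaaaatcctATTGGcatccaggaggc
Ampd3: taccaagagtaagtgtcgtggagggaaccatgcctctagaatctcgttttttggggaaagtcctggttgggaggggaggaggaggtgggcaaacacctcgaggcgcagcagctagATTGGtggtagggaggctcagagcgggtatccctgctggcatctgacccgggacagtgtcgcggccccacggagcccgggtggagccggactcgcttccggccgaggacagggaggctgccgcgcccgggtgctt
The Gda box starts 17 bases before the annotated start, and the Ampd3 box 135 bases before. CCAAT or its reverse ATTGG was added to the search after the sequences were seen, and it is in 4 of the 13 windows matched for these genes (Gda, Ada and 2 of Ampd3) and in 33.8% of all 32851 windows of that length. The SOX core AACAAT, searched on both strands, is in none of the 13 windows, which belong to 9 of the genes, and in 9.42% of all windows. The TCF/LEF core CTTTGAT is in none of the 13 either and in 3.21% of all. An E-box, CACGTG, lies in the Impdh2 window and before another Ampd3 start, and in 6.02% of all windows. The AP-1 motif TGACTCA lies in the Aprt window and in 4.46% of all. No Xdh window was matched. These are letter matches in short windows and say nothing of which factors bind there; gene-level counts do not show which Ampd3 start is used.

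Guanine deaminase takes guanine out of the salvage pool. Gda was at 23.3, 22.8 and 18.5 CPM in the SOX17KO libraries, against 2.86, 2.87 and 3.43 CPM in the Control libraries. All 3 SOX17KO libraries lay far above all 3 Control libraries, and SOX17KO replicate 1, which stood apart across genes, did not do so for this gene. The means were 21.5 ± 2.65 CPM in SOX17KO and 3.05 ± 0.325 CPM in Control (SD, n = 3 each), a ratio of 7.04, and each SOX17KO library was between 6.05 and 7.63 times the Control mean. The values rest on between 333 and 610 expected counts per SOX17KO library, against between 60.0 and 90.1 per Control library. The fitted log2 fold change was 2.82 ± 0.15 (SE), and 2.75 without SOX17KO replicate 1. Of the 20 tested genes nearest to Gda on chromosome 19, none was called and their median log2 fold change was 0.078.

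Xanthine dehydrogenase, the next enzyme of that route, did not share this pattern. Xdh was at 14.3, 33.3 and 22.1 CPM in the SOX17KO libraries, against 18.9, 15.0 and 17.6 CPM in the Control libraries. The groups overlapped, because SOX17KO replicate 1 was the lowest of all 6 libraries and SOX17KO replicate 2 the highest. The log2 fold change was 0.44 ± 0.28 (SE) with all libraries, 0.69 without SOX17KO replicate 1 and 0.079 without SOX17KO replicate 2.

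**Figure D1:**
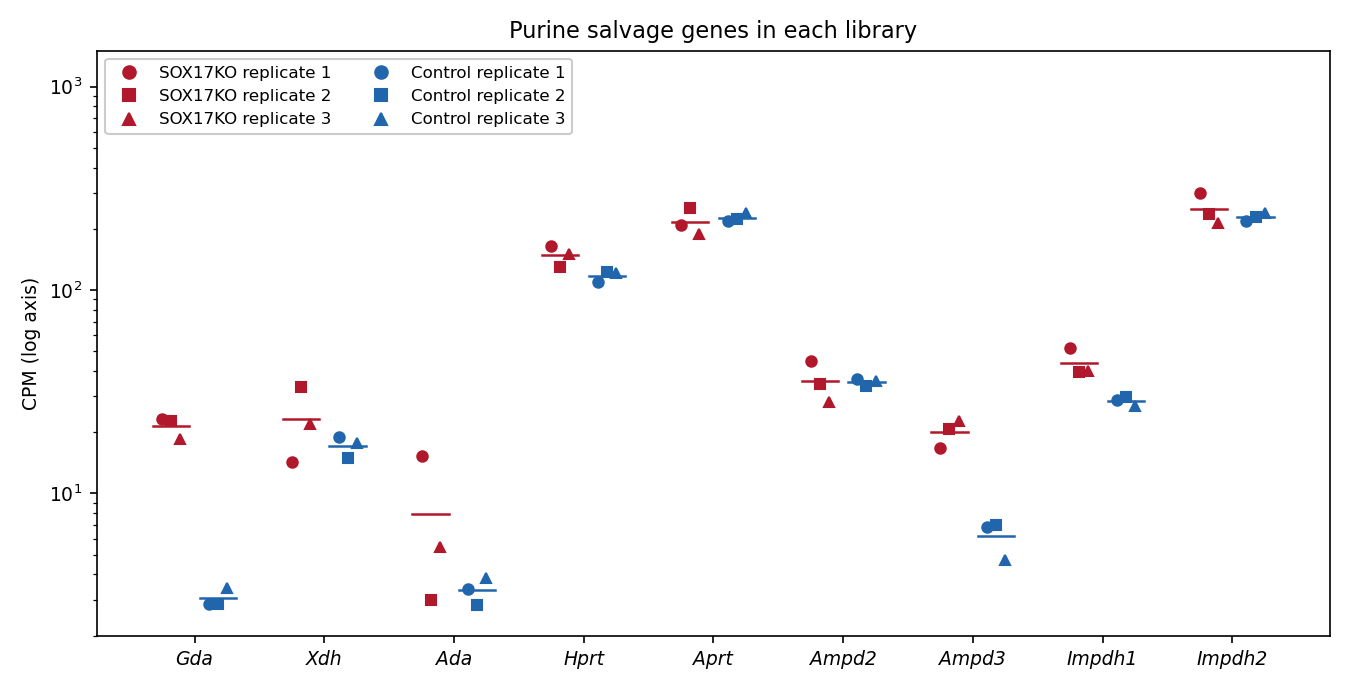
CPM of the 9 genes that passed the low-count filter, on a log axis, in each SOX17KO library (red) and each Control library (blue); marker shape gives the replicate and the line the group mean. The SOX17KO points lie above every Control point for Gda, Ampd3, Impdh1 and Hprt, and overlap them for the other 5 genes.

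Adenosine deaminase, which turns adenosine into inosine, was highest in SOX17KO replicate 1. Ada was at 15.3, 2.98 and 5.43 CPM in the SOX17KO libraries, against 3.40, 2.82 and 3.84 CPM in the Control libraries. SOX17KO replicate 1 was 4.57 times the Control mean, SOX17KO replicate 3 was 1.62 times that mean and above the Control range, and SOX17KO replicate 2 lay inside it. The log2 fold change was 1.24 ± 0.56 (SE), and 0.30 without SOX17KO replicate 1.

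The phosphoribosyltransferases rebuild nucleotides from free bases, Hprt from hypoxanthine and guanine and Aprt from adenine. Hprt was at 164.8, 129.6 and 150.5 CPM in the SOX17KO libraries, against 109.0, 122.2 and 121.3 CPM in the Control libraries. The groups did not overlap but lay close, SOX17KO replicate 2 being 1.10 times the Control mean, and the log2 fold change was 0.34 ± 0.11 (SE). Aprt was at 208.7, 251.8 and 189.1 CPM in the SOX17KO libraries, against 218.1, 224.0 and 238.9 CPM in the Control libraries. Here the SOX17KO libraries lay on both sides of the Control range, with a log2 fold change of -0.07 ± 0.12 (SE; 95% interval -0.34 to 0.21).

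AMP deaminases turn AMP into IMP, and the values of the paralogs were unlike. Ampd3 was at 16.8, 20.6 and 22.7 CPM in the SOX17KO libraries, against 6.84, 7.03 and 4.72 CPM in the Control libraries. All SOX17KO libraries were at least 2.71 times the Control mean, with a log2 fold change of 1.69 ± 0.19 (SE), and 1.81 without SOX17KO replicate 1. Ampd2 was at 44.7, 34.4 and 28.0 CPM in the SOX17KO libraries, against 36.7, 33.6 and 35.6 CPM in the Control libraries. Its SOX17KO libraries lay above, inside and below the Control range, and its log2 fold change was 0.02 ± 0.17 (SE; 95% interval -0.37 to 0.41). On GRCm38 Ampd3 overlaps Rnf141, which lies on the opposite strand. The library kit was a directional one, per the labels, but whether counting used strand is not given in the sources used here. Rnf141 was at 15.0, 13.5 and 12.7 CPM in the SOX17KO libraries, against 10.8, 14.2 and 12.9 CPM in the Control libraries, with overlapping groups.

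IMP dehydrogenases make the step from IMP towards GMP. Impdh1 was at 51.6, 39.7 and 40.2 CPM in the SOX17KO libraries, against 28.8, 29.7 and 27.0 CPM in the Control libraries. The groups did not overlap, SOX17KO replicate 1 was the highest, and the log2 fold change was 0.62 ± 0.12 (SE), or 0.49 without SOX17KO replicate 1. Impdh1 lies on chromosome 6, where 442 of 586 tested genes (75.4%) had a negative log2 fold change against 47.3% of all tested genes. The 20 nearest tested genes around Impdh1 had a median log2 fold change of 0.088, and 1 of them was called higher and 1 lower. Impdh2 was at 300.7, 236.1 and 212.9 CPM in the SOX17KO libraries, against 218.3, 228.4 and 238.0 CPM in the Control libraries. SOX17KO replicate 1 lay above the Control range, SOX17KO replicate 2 inside it and SOX17KO replicate 3 below it, and the log2 fold change was 0.13 ± 0.13 (SE), or -0.03 without SOX17KO replicate 1. Impdh2 overlaps Ndufaf3 on the opposite strand, which was at 21.5, 19.6 and 22.3 CPM in the SOX17KO libraries and at 19.5, 19.3 and 19.8 CPM in the Control libraries.

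Nt5e, the cell-surface enzyme CD73 that makes adenosine from AMP, was at the detection limit. It had 1 count in SOX17KO replicate 2, 1 count in Control replicate 1 and 0 in the other libraries, where a count of 0 allows up to 3 counts, or between 0.114 and 0.166 CPM (counting error only).

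In the fit across all genes, edgeR's quasi-likelihood test at a Benjamini-Hochberg adjusted p below 0.05, 3 of the 9 tested genes (Gda, Ampd3 and Impdh1) were called higher and 0 lower, where 6.87% of the 12137 tested genes were called, 3.67% higher and 3.20% lower. Groups did not overlap for 4 of the 9, against 28.2% of tested genes. Their median log2 fold change was 0.44, and that of all tested genes 0.014. Impdh1 was not called when any 1 Control library was left out. Over all genes, those fits called 97 to 99 higher and 94 to 105 lower, against 446 and 388 with all libraries. Xdh was called in addition without SOX17KO replicate 1, where 22.2% of 12220 tested genes were called. As the genes were chosen with these values known, nothing is read from these counts. SOX17KO replicate 1 was the highest of the 6 libraries for 6 of the 9 genes and for 30.1% of all tested genes.

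Per kilobase of the longest protein-coding transcript in GENCODE M21, levels spanned a wide range. In SOX17KO Aprt was highest at 255.1 ± 37.8 CPM per kb, followed by Impdh2 at 134.5 ± 24.5, Hprt at 115.0 ± 13.7, Impdh1 at 16.9 ± 2.59 and Ampd2 at 9.78 ± 2.30 CPM per kb (SD, n = 3). Xdh at 5.05 ± 2.07, Ampd3 at 4.89 ± 0.729, Ada at 4.69 ± 3.88 and Gda at 3.96 ± 0.487 CPM per kb came next, and each neighbouring pair among these 4 overlapped in its libraries, as did Impdh2 and Hprt. In Control the first 6 places were the same, from Aprt at 267.4 ± 12.6 to Xdh at 3.73 ± 0.431 CPM per kb. Ada at 1.99 ± 0.303, Ampd3 at 1.51 ± 0.314 and Gda at 0.562 ± 0.0599 CPM per kb followed, where Ada and Ampd3 overlapped and Gda lay below both. Nt5e was last in both groups.

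**Figure D2:**
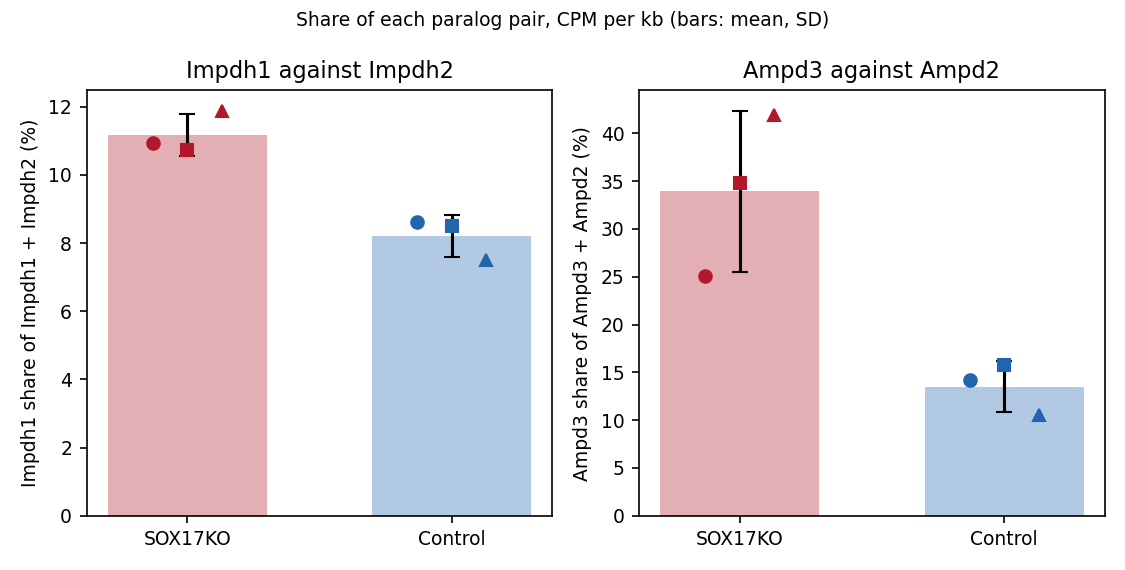
Impdh1 as a percentage of Impdh1 plus Impdh2 (left panel) and Ampd3 as a percentage of Ampd3 plus Ampd2 (right panel), in CPM per kb, with SOX17KO in red and Control in blue; points are libraries, bars are means and error bars are SD. The 3 SOX17KO points of each panel lie above its 3 Control points.

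These levels give the balance within each paralog pair. Impdh1 made up 10.9%, 10.7% and 11.9% of the IMP dehydrogenase signal per kb in the SOX17KO libraries, against 8.62%, 8.49% and 7.49% in the Control libraries. Impdh2 was thus the main form in every library. Ampd3 made up 25.1%, 34.9% and 41.9% of the summed Ampd2 and Ampd3 signal per kb in the SOX17KO libraries, against 14.2%, 15.7% and 10.6% in the Control libraries. The summed AMP deaminase signal was between 13.2 and 16.3 CPM per kb in SOX17KO and between 10.9 and 11.7 CPM per kb in Control, while the summed IMP dehydrogenase signal overlapped, at 130.0 to 181.7 CPM per kb in SOX17KO and 128.6 to 138.5 CPM per kb in Control. These shares depend on 1 transcript length per gene and were not tested.

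The rest of purine metabolism was examined with 99 further genes in 10 lists by role, of which 98 had a row and 68 were tested. Of the 68, 1 was called higher and 3 lower (edgeR, adjusted over all genes tested), beside 3.67% higher and 3.20% lower of all tested genes, and their median log2 fold change was 0.028. Without SOX17KO replicate 1, 9 were called higher and 9 lower of 68, against 22.2% of all genes tested in that fit. Among 19 tested pyrimidine genes, used for comparison, none was called by edgeR in either direction, and 0 had an unadjusted p below 0.05; without SOX17KO replicate 1, 3 were called higher. Averaged over the 6 libraries, their most abundant gene was Cmpk1. Cmpk1, a nucleoside monophosphate kinase, was at 173.3 ± 20.02 CPM in SOX17KO and 185.0 ± 10.9 CPM in Control (SD, n = 3 each; edgeR adjusted p = 0.716).

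De novo synthesis showed no call. All 8 genes were tested, 0 were called and 0 had an unadjusted edgeR p below 0.05, with log2 fold changes between -0.09 and 0.23. SOX17KO replicate 1 was the highest of the 6 libraries for 7 of the 8. Paics, which catalyses consecutive steps of the route, was at 399.1, 328.9 and 336.0 CPM in the SOX17KO libraries, against 288.4, 313.5 and 325.1 CPM in the Control libraries (edgeR adjusted p = 0.348). Gart, chosen after its values were seen, showed 178.7, 111.1 and 100.9 CPM in the SOX17KO libraries, against 116.3, 122.1 and 128.2 CPM in the Control libraries. Without SOX17KO replicate 1 Atic, the last enzyme of the route, was called lower and the other 7 were not called. In that fit 22.2% of all tested genes were called.

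Of 5 enzymes of the branches between IMP and the nucleotides AMP and GMP, 0 were called and 0 had an unadjusted edgeR p below 0.05. Adss, adenylosuccinate synthase, was at 243.8 ± 46.0 CPM in SOX17KO and 265.9 ± 20.1 CPM in Control (SD, n = 3 each, edgeR adjusted p = 0.735). Without SOX17KO replicate 1, 1 of the 5, Adssl1, was called higher, where 22.2% of all tested genes were called. Of 9 other salvage enzymes 0 were called by edgeR and 2 had an unadjusted p below 0.05. Averaged over the 6 libraries the most abundant was Ahcy, although Ahcyl1 was higher in Control, at 217.4 ± 27.5 CPM in SOX17KO and 229.2 ± 5.26 CPM in Control (SD, n = 3 each). Ahcy, which releases adenosine from S-adenosylhomocysteine, was at 333.7, 249.1 and 212.2 CPM in the SOX17KO libraries, against 192.3, 193.3 and 213.1 CPM in the Control libraries (edgeR adjusted p = 0.218). The 3 ribonucleotide reductase genes, which make deoxynucleotides, were not called by edgeR and 0 had an unadjusted p below 0.05. Without SOX17KO replicate 1, Rrm1 and Rrm2 were called lower, where 22.2% of all tested genes were called in either direction. Rrm1, the large subunit, was at 387.9, 210.2 and 237.1 CPM in the SOX17KO libraries, against 270.9, 307.2 and 323.3 CPM in the Control libraries. Its log2 fold change was -0.11 (edgeR adjusted p = 0.861), and -0.43 without SOX17KO replicate 1 (edgeR adjusted p = 0.00871).

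Of 11 tested nucleotidases and sanitising phosphatases, edgeR called 1 lower and 0 higher, and 2 had an unadjusted p below 0.05. The other was Nt5c, a cytosolic nucleotidase named after its values were seen, at 56.0, 56.2 and 45.8 CPM in the SOX17KO libraries, against 37.7, 38.0 and 41.3 CPM in the Control libraries (edgeR adjusted p = 0.0562). The groups did not overlap, as for 28.2% of all tested genes. Nt5c was called higher without SOX17KO replicate 1, where 22.2% of all tested genes were called. Nudt1, which hydrolyses oxidised purine nucleotides, fell to 28.6, 27.3 and 25.1 CPM in the SOX17KO libraries, against 41.9, 45.4 and 51.7 CPM in the Control libraries. Its log2 fold change was -0.78 ± 0.11 (SE, edgeR adjusted p = 0.00799). Of the fits that omit 1 library, only the one without Control replicate 2 did not call Nudt1 (edgeR adjusted p = 0.0562). That fit called 98 genes higher and 94 lower over all genes, against 446 and 388 with all libraries. Of 14 alternatives by edgeR, DESeq2 or limma-voom, 12 called Nudt1. Over all 14 the adjusted p lay between 1.84e-07 and 0.0562. Of the 20 tested genes around Nudt1 on chromosome 5, 19 had a negative log2 fold change and 12 were called lower, with a median of -0.72, and a change of Nudt1 and a shift of its neighbourhood cannot be told apart. Nudt1 also overlaps a gene on the opposite strand, Mrm2. Itpa, which clears inosine triphosphate, was at 66.9 ± 11.5 CPM in SOX17KO and 63.8 ± 6.10 CPM in Control (SD, n = 3 each; edgeR adjusted p = 0.860). Of 9 AMP, GMP and diphosphate kinases 0 were called by edgeR and 1 had an unadjusted p below 0.05. Nme2, a nucleoside diphosphate kinase, was at 306.1 ± 37.4 CPM in SOX17KO and 278.5 ± 22.9 CPM in Control (SD, n = 3 each; edgeR adjusted p = 0.606); how its reads were split from those of its close paralog Nme1 was not tested. Ak3, named after its values were seen, showed 55.0, 2.54 and 6.31 CPM in the SOX17KO libraries, against 1.95, 2.25 and 1.86 CPM in the Control libraries. Its log2 fold change was 3.41 ± 1.10 (SE, edgeR adjusted p = 0.127), with SOX17KO replicate 1 far above the other libraries. Without SOX17KO replicate 1, 2 of the 9 kinases, Ak3 and Ak4, were called higher, where 22.2% of all tested genes were called.

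**Figure D3:**
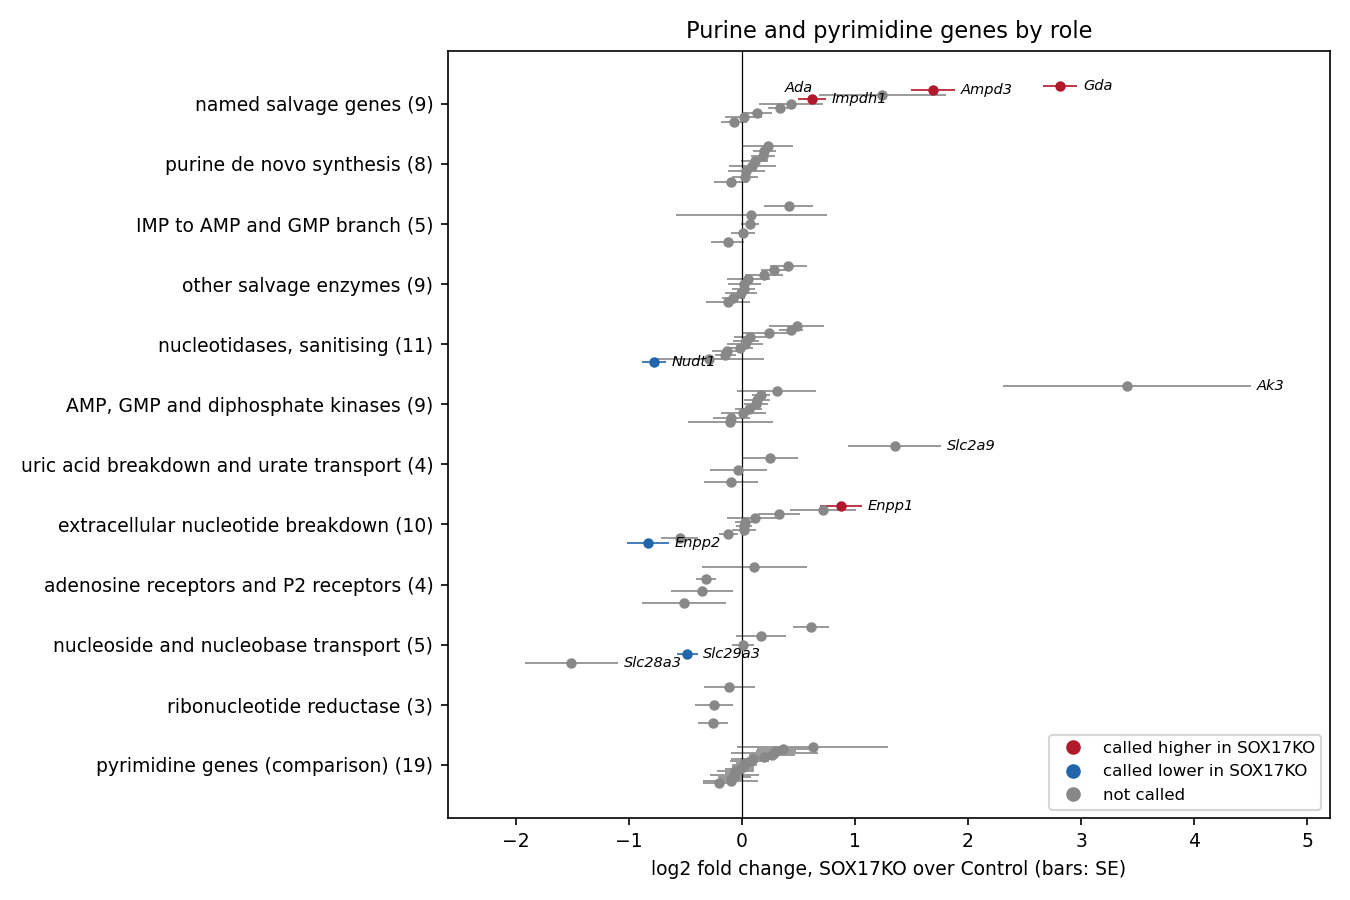
Fitted log2 fold change, SOX17KO over Control, of each tested gene, with its SE as a bar, in rows by role; red and blue mark genes called higher and lower in SOX17KO, grey those not called, and the number of tested genes stands beside each row. Gda at 2.82 and Ampd3 at 1.69 lie to the right of the called genes of all other rows, Ak3 at 3.41 with an SE of 1.10 is the value farthest right and not called, and the de novo synthesis genes lie between -0.09 and 0.23.

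Of 16 genes listed for extracellular nucleotide breakdown and its relatives, 10 were tested. EdgeR called 1 higher and 1 lower, where 6.87% of all tested genes were called. An unadjusted edgeR p below 0.05 was found for 4, and groups did not overlap for 4, against 28.2% of all tested genes. Entpd8 and Entpd2, named after their values were seen, had such a p without being called, at log2 fold changes of -0.55 and 0.71 (edgeR adjusted p = 0.105 and 0.230). Not all enzymes of this list act outside the cell, Entpd4 and Entpd7 among them. Enpp1, an ectoenzyme that splits ATP to AMP and pyrophosphate, rose to 19.0, 27.3 and 32.1 CPM in the SOX17KO libraries, against 14.3, 14.4 and 14.001 CPM in the Control libraries. Its log2 fold change was 0.87 ± 0.19 (SE; edgeR adjusted p = 0.0380). Enpp2, the secreted enzyme autotaxin, known mainly for making lysophosphatidic acid, fell to 147.2, 90.7 and 101.9 CPM in the SOX17KO libraries, against 222.5, 197.3 and 185.4 CPM in the Control libraries. Its log2 fold change was -0.83 ± 0.18 (SE; edgeR adjusted p = 0.0415). Neither was called when any 1 Control library was left out, or without SOX17KO replicate 2 or 3 (highest edgeR adjusted p 0.166 for Enpp1 and 0.178 for Enpp2). Over all genes, leaving out 1 Control library gave 97 to 99 higher and 94 to 105 lower calls, against 446 and 388 with all libraries. Without SOX17KO replicate 2 there were 444 higher and 315 lower, and without SOX17KO replicate 3 there were 352 higher and 321 lower. Enpp1 was also not called by limma-voom (adjusted p = 0.0612), nor Enpp2 by edgeR with library totals only (adjusted p = 0.0739). Without SOX17KO replicate 1 the list had 3 higher and 2 lower calls of 10, where 22.2% of all tested genes were called. Entpd1, the ectoenzyme CD39, and Dpp4, a surface protein that binds adenosine deaminase in humans, had 0 counts in every library. Both were named after their values were seen.

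Of 13 adenosine and P2 receptor genes 4 were tested, 0 were called by edgeR and 1 had an unadjusted p below 0.05. This was P2ry2, named after its values were seen. It was at 71.3, 68.0 and 60.2 CPM in the SOX17KO libraries, against 85.1, 80.6 and 82.6 CPM in the Control libraries. Its edgeR adjusted p was 0.0855, and it was called lower without SOX17KO replicate 1, where 22.2% of all tested genes were called. The adenosine receptor genes Adora1, Adora2a, Adora2b and Adora3, also picked with their values in view, had at most 4 expected counts over the SOX17KO libraries and at most 6 over the Control libraries, each too few to test. P2rx4, an ATP-gated channel, was at 38.5, 83.5 and 83.1 CPM in the SOX17KO libraries, against 91.5, 84.8 and 84.7 CPM in the Control libraries (edgeR adjusted p = 0.569). Of 9 genes listed for nucleoside and nucleobase transport 5 were tested. EdgeR called 1 lower and 0 higher, where 6.87% of all tested genes were called. An unadjusted edgeR p below 0.05 was found for 3, and groups did not overlap for 3, against 28.2% of all tested genes. Besides the called gene these were Slc28a3 and Slc29a1, named after their values were seen. Their log2 fold changes were -1.51 and 0.62 (edgeR adjusted p = 0.0844 and 0.0705). Slc29a3, an intracellular equilibrative nucleoside transporter, fell to 34.8, 31.5 and 32.5 CPM in the SOX17KO libraries, against 50.1, 44.0 and 43.9 CPM in the Control libraries, a log2 fold change of -0.48 ± 0.09 (SE; edgeR adjusted p = 0.0250). It was not called when any 1 Control library was left out, or without SOX17KO replicate 2 or 3 (highest edgeR adjusted p 0.125). The fits without 1 Control library called 97 to 99 genes higher and 94 to 105 lower over all genes. Slc29a3 was also not called when edgeR scaled by library totals alone (adjusted p = 0.0551). Of the 5, 1 (Slc29a1) was called higher and 2 (Slc28a3 and Slc29a3) lower without SOX17KO replicate 1, where 22.2% of all tested genes were called. Slc23a2, on this list although it encodes a vitamin C transporter, was at 64.3 ± 6.84 CPM in SOX17KO and 63.9 ± 0.745 CPM in Control (SD, n = 3 each, edgeR adjusted p = 0.973). Of 11 genes of uric acid breakdown and urate transport 4 were tested, 0 were called by edgeR and 1 had an unadjusted p below 0.05. Without SOX17KO replicate 1, 1 of the 4, Urah, was called higher, where 22.2% of all tested genes were called. Uox, uricase, named after its values were seen, had 4 counts over SOX17KO and 12 over Control. Aox1, an aldehyde oxidase related to Xdh, was at 16.9 ± 5.38 CPM in SOX17KO and 18.0 ± 1.39 CPM in Control (SD, n = 3 each; edgeR adjusted p = 0.885).

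Genes with a pattern like that of Gda were ranked by the root mean square difference from Gda of log2 CPM minus the gene's Control mean, over the 6 libraries and 11399 other genes with a mean of at least 1 CPM. The closest was Tmem173, which encodes the nucleic acid signalling protein STING, with a difference of 0.115. It was at 89.2, 89.7 and 71.3 CPM in the SOX17KO libraries, against 10.8, 11.3 and 11.1 CPM in the Control libraries. Like Gda, it was lower in SOX17KO replicate 3 than in SOX17KO replicates 1 and 2, as were Cxcl5 and Lgals9 among the genes below. Man1a, a Golgi mannosidase gene, followed at 0.182, Cxcl5, a chemokine gene, at 0.189, Rbp4, a retinol carrier gene, at 0.198 and Lgals9, a galectin gene, at 0.258. Rbp4 lies on chromosome 19 like Gda, but not among the 20 tested genes nearest to it. The 5 genes were picked by values of the same libraries, so likeness to Gda, also in the order of libraries, was built into the choice. Their ratios of SOX17KO to Control, between 7.12 for Man1a and 8.63 for Lgals9, are likewise a description.

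**Figure D4:**
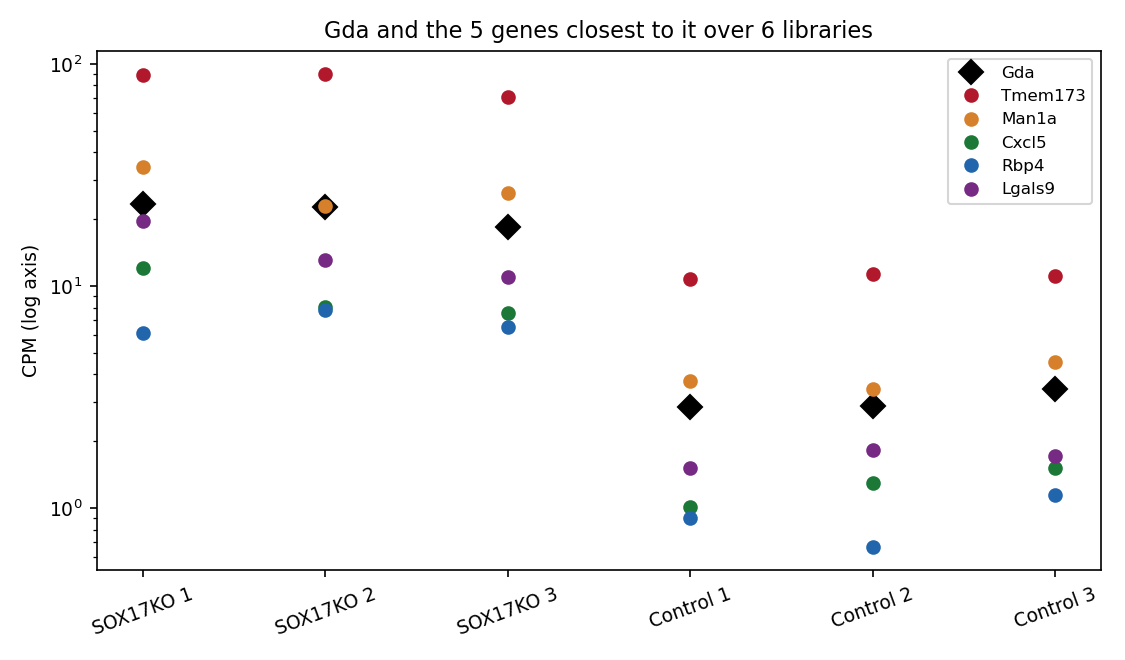
CPM on a log axis of Gda (diamonds) and of the 5 genes with the smallest difference from it, in the 3 SOX17KO libraries and the 3 Control libraries. Every gene is between 7.04 and 8.63 times as high on average in SOX17KO, and Gda, Tmem173, Cxcl5 and Lgals9 are lowest among the SOX17KO libraries in replicate 3.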

How the data were processed

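RNA-seq was measured in 6 libraries, 3 SOX17KO and 3 Control. The authors deposited 1 table of expected counts per gene, made with Bowtie and RSEM on mm9, per the submitters' processing notes; the sources used here do not give versions, annotation or strand setting. Because RSEM splits reads among similar genes, 26.6% to 30.3% of values per library are not whole. Counts were rounded, filtered with filterByExpr (minimum count 10, minimum total 15), which left 12137 genes, TMM-scaled and tested with edgeR 4.0.16's quasi-likelihood test in R 4.3.3, with Benjamini-Hochberg adjustment over all genes tested and a threshold of 0.05. The code was tested on simulated data. Alternatives used DESeq2 1.42.0 and limma 3.58.1, other scalings and filters, a block for replicate number, and fits that each omit 1 library. The 10 genes and all lists were chosen with earlier results of these data known. From each list the called genes and, with fewer than 2 called, the most abundant other gene are named, besides the genes closest to Gda; any further gene was picked with its values in view. Promoter windows (RefSeq, GRCm38.p6) were cut to the 250 bases before the annotated start. P-values measure only the spread between these libraries.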

Additional observations from a re-analysis of the deposited data

How the results depend on the processing

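Gda and Ampd3 kept their direction and were called in all 14 alternatives, with log2 fold changes of 2.75 to 2.91 and 1.52 to 1.81. Impdh1 kept its direction in all 14 (0.49 to 0.69) and was called in 10. Counts over all genes, 446 higher and 388 lower, became 771 and 668 with DESeq2. Leaving out 1 library each gave 97 to 1453 higher and 94 to 1255 lower, the highest without SOX17KO replicate 1. Of the 10 genes, 2 to 4 were called higher and 0 lower with 1 library left out. Of the purine genes outside the 10, with 1 higher and 3 lower calls, DESeq2 gave 4 higher and 6 lower calls. There were 0 higher by limma-voom, 1 lower with library totals only, and 0 to 9 higher and 0 to 9 lower leaving out 1 library. Of all tested genes, 6.87% were called in the full fit, 10.7% by DESeq2 and 22.2% without SOX17KO replicate 1. Over all genes, limma-voom gave 363 higher and library totals only 354 lower. Leaving out 1 Control library gave 97 to 99 higher and 94 to 105 lower over all genes. Replicate numbers did not pair the samples (correlations of same-numbered deviations -0.186, -0.0467 and -0.181); a replicate block gave 183 higher and 143 lower over all genes, 2 of the 10 genes higher, and 0 higher and 1 lower purine genes, losing the calls of Impdh1, Nudt1, Enpp1 and Slc29a3 (edgeR adjusted p 0.0888, 0.0552, 0.0929 and 0.0939). Some log2 fold changes near 0, uncalled with all libraries, changed sign. Of these genes only Rrm1 was called in any alternative, lower at -0.43 without SOX17KO replicate 1 (edgeR adjusted p = 0.00871). Without the low-count filter Ampd2 was at -0.00088 and Slc23a2 at -0.0081, and Ampd2 was at -0.0080 with the replicate block. With 1 library left out, values ran from -0.18 to 0.16 for Ampd2, -0.025 to 0.23 for Impdh2, -0.19 to 0.021 for Aprt, -0.23 to 0.020 for Adss, -0.053 to 0.19 for Itpa, -0.26 to 0.15 for Aox1, -0.074 to 0.082 for Slc23a2 and -0.43 to 0.056 for Rrm1; the cause was not tested. Nt5e and the adenosine receptor genes were below the depth needed for a test.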
